A study of Mus musculus with 6 samples.

Results

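Cajal-Retzius cells are among the first neurons of the cerebral cortex, and the 10 genes described here are used to recognise them. The genes are Trp73, Lhx1, Lhx5, Ebf2, Ebf3, Nhlh2, Barhl2, Ndnf, Calb2 and Cxcr4. They were chosen by name with earlier results of these data known, and every probe set that the array annotation gives to 1 of these genes alone was taken, which left 17 of the 45037 probe sets measured. In a table with 1 probe set a gene they are 10 of 18193 genes. RNA came from dissected dorsal telencephalon, from which the cortex develops, at E14.5 (embryonic day) from C57BL\6 embryos labelled male. The 3 cKO arrays hold embryos lacking ESET through Emx2Cre, a Cre line named after a gene of dorsal forebrain progenitors. ESET is the product of Setdb1 and methylates histone H3 at lysine 9. The 3 WT arrays hold wild type embryos, and each array was taken as 1 embryo, which the values of cKO 3 given below put in doubt. The labels do not say whether WT embryos carried Cre or which exons were deleted, so an effect of the Cre allele and one of the deletion cannot be told apart. Whether the embryos came from separate litters is not stated, and p-values measure only the spread between these arrays.

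Cajal-Retzius cells are born at the edges of the cortex, in the cortical hem, the septum and the border with the ventral telencephalon. They migrate tangentially beneath the meninges and settle in the marginal zone, where they secrete reelin, the protein that guides the layering of later neurons. Their identity is set by several families of transcription factors, and they carry the chemokine receptor Cxcr4, which reads Cxcl12 released by the meninges. Several of these genes also mark other cells of the embryonic forebrain, such as interneurons or neurons of the diencephalon. In bulk tissue, fewer cells of a type and less RNA per cell cannot be told apart.

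The 10 genes parted into 5 whose cKO and WT arrays did not overlap, all lower in cKO, and 5 whose arrays did, and none passed the adjusted test. Trp73, Lhx5, Lhx1 and Ndnf had cKO mean intensities between 24.8% and 40.4% of the WT means on their brightest probe sets. Cxcr4 was at 73.7% of the WT mean. Ebf2, Ebf3, Nhlh2, Barhl2 and Calb2 had overlapping groups. In the limma fit, with adjusted p under 0.05 as the threshold, 0 of the 17 probe sets passed in either direction (background 0.0511% lower in cKO). Likewise 0 of the 10 genes passed in the gene table (background 0.242% lower and 0.385% higher in cKO). At an unadjusted p under 0.05, 4 genes were lower and 0 higher (background 4.39% lower and 5.17% higher). Groups that did not overlap were found for 6 of 17 probe sets, all of them lower in cKO, or 35.3% (background 6.07% lower and 7.47% higher). For genes this count was 5 of 10 lower and 0 higher (background 7.64% lower and 7.9% higher). Since the genes were chosen with results known, these counts are a description and no test. The median log2 fold change, cKO minus WT, was -0.37 over the 10 genes and 0.01 over all genes. Fold changes are differences of mean log2(intensity + 16), a scale that makes those of dim probe sets smaller than their intensity ratios.

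**Figure D1:**
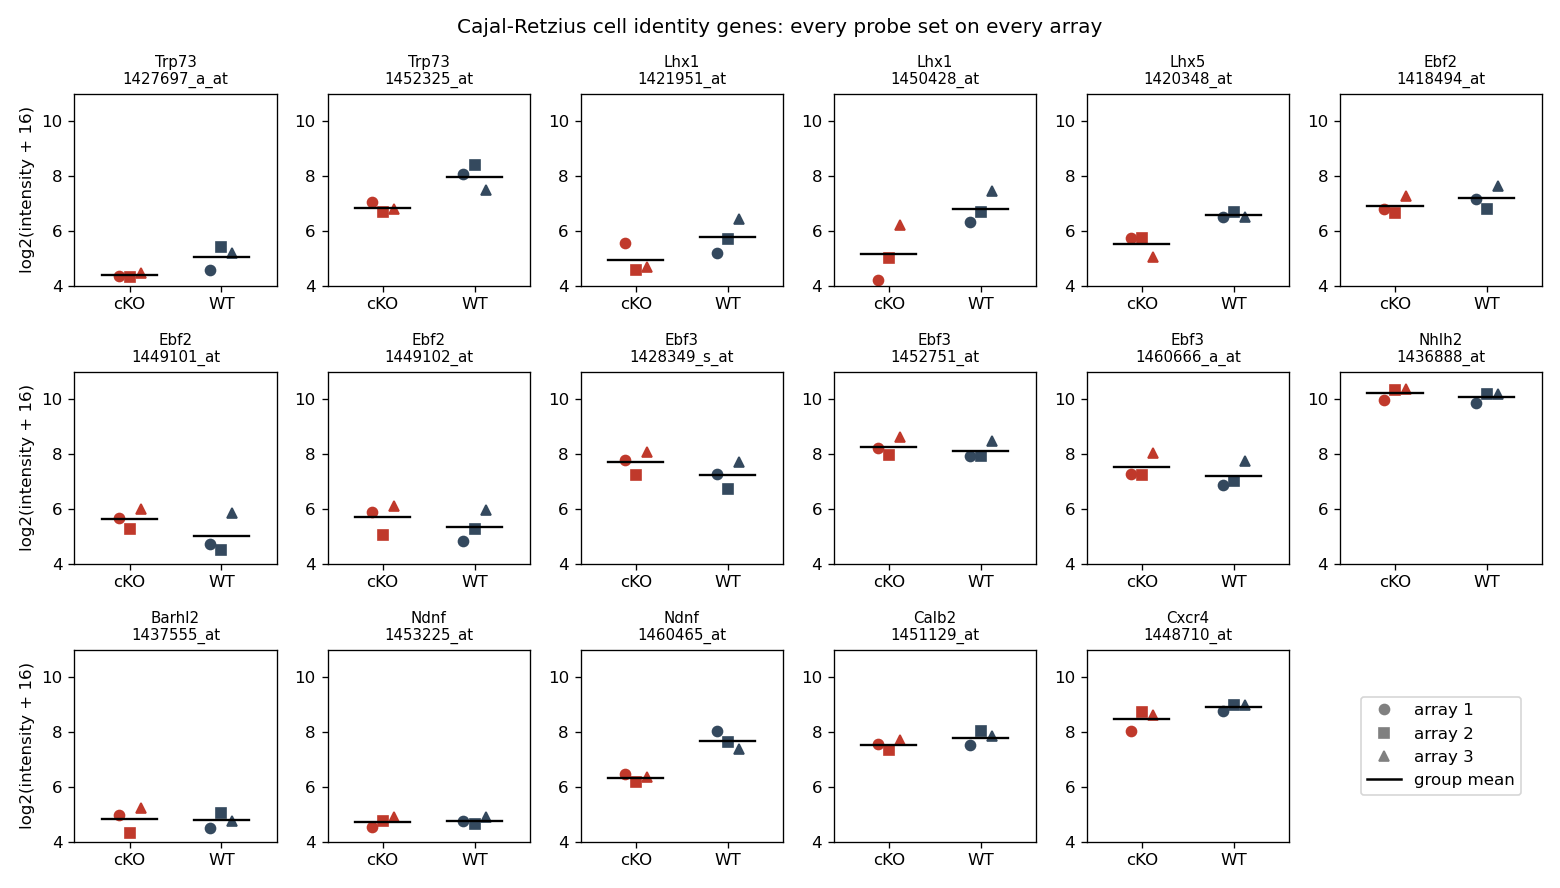
Log2(intensity + 16) of the 17 probe sets on each of the 6 arrays, with cKO left of WT, a symbol for each array number and a bar at the group mean. Trp73, Lhx5, the brighter Lhx1 and Ndnf probe sets and Cxcr4 have all cKO points below all WT points. The groups overlap for Ebf2, Ebf3, Nhlh2, Barhl2 and Calb2.

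The arrays numbered 3 stood apart. WT 3 is labelled male but had an Xist intensity of 17294 and an Eif2s3y intensity of 22.2, where the other WT arrays had 59.0 and 42.3 for Xist and 1927 and 1973 for Eif2s3y. cKO 3 had both, with Xist at 8811 and Eif2s3y at 961, where the other cKO arrays had 39.5 and 34.1 for Xist and 2103 and 2186 for Eif2s3y. Whether cKO 3 holds RNA of 1 embryo was not tested. The embryonic globin gene Hba-x read 19913 on cKO 3 and 20068 on WT 3, against 270 to 513 on the other arrays. Values without both arrays are therefore given beside some of the results, and not for every gene of the lists. Without them Cxcr4 was at -0.50, Calb2 at -0.32, Nhlh2 at 0.12 and Setdb1 at -0.73 on the log2 scale. Dorsal telencephalon genes were present on every array, among them Emx1 (693 to 1150 in cKO, 784 to 1242 in WT) and Neurod6 (17864 to 22332 in cKO, 13756 to 18877 in WT). Setdb1 averaged 633 ± 115 in cKO and 1126 ± 81.9 in WT (SD, n = 3 each) on its brightest probe set (log2 fold change -0.83, adjusted p = 0.137 in the gene table), without overlap. Its dimmer probe sets were at -1.14 without overlap and -0.44 with overlap. Which exons they read relative to the deletion is not known here. Array medians ran from 98.7 to 119 in cKO and from 91.1 to 113 in WT.

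Trp73 encodes p73, a transcription factor of the Trp53 family that mouse Cajal-Retzius cells of the hem and septum express and need for their survival. The gene is read from an upstream start, which gives full-length proteins, and from an internal start, which gives forms without the transactivation domain that prevail in the embryonic brain. The windows around both starts are shown because it is not known here from which start the transcripts read by each probe set came. Those of Lhx1 and Cxcr4 are shown because their groups did not overlap either. Each holds 250 bases before and 50 bases after a start, from RefSeq on GRCm38.p6, all on the minus strand. They lie at chr4:154139826-154140125 for the upstream and chr4:154097124-154097423 for the internal Trp73 start, chr11:84525485-84525784 for Lhx1 and chr1:128592250-128592549 for Cxcr4. Capitals mark CANNTG, the E-box recognised by basic helix-loop-helix factors, read on both strands.
Trp73 upstream start: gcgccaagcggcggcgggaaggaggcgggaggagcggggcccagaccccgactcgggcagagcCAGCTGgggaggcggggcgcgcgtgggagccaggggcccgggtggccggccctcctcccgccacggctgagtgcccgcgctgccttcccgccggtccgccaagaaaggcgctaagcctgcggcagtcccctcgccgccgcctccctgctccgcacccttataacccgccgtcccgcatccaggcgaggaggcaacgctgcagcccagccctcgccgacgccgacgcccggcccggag
Trp73 internal start: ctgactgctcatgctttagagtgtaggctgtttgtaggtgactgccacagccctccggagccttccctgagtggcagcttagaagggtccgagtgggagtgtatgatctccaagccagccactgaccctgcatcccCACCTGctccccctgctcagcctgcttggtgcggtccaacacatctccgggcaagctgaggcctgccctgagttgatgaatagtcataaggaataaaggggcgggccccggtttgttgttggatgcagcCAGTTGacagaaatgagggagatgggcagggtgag
Lhx1: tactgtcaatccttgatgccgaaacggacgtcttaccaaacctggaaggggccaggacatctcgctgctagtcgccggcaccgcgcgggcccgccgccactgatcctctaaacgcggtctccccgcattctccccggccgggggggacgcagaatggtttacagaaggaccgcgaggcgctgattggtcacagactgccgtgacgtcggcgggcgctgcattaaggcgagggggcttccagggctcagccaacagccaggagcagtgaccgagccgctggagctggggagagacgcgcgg
Cxcr4: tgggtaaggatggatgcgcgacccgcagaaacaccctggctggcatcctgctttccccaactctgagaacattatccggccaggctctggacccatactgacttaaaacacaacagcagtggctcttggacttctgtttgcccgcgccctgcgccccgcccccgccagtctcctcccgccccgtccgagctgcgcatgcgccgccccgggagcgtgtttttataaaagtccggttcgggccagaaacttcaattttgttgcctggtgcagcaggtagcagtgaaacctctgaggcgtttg

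The upstream Trp73 window held 1 E-box and the internal window 2, while those of Lhx1 and Cxcr4 held 0, where 72.3% of the 32851 windows of this length in the table hold at least 1. CG dinucleotides numbered 39 in the upstream and 6 in the internal Trp73 window, 31 in that of Lhx1 and 20 in that of Cxcr4, against a median of 7 over all windows. The homeodomain core TAATTA, which reads the same on both strands, was in 0 of the 4 windows, and 5.29% of all windows hold it. The TATA box letters TATAAA were found at 2 overlapping places of the Cxcr4 window, once on each strand, and in 0 of the other 3 (13.6% of all windows). Of the 10 genes, 6 matched the table. Windows of the matched genes with overlapping groups, Ebf3, Nhlh2 and Barhl2, held 46, 2 and 42 CG dinucleotides and 0, 4 and 3 E-boxes.

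The brighter Trp73 probe set (1452325_at) read 116, 86.1 and 95.3 on the cKO arrays, against 253, 321 and 163 on the WT arrays. The highest cKO array lay below the lowest WT array, WT 3. The difference was -1.14 on the log2 scale (SE 0.26, adjusted p = 0.249 over all probe sets and 0.163 in the gene table). Without both arrays numbered 3 it was -1.37 (SE 0.23). The other Trp73 probe set (1427697_a_at) was dim, at 4.48, 3.96 and 6.10 in cKO, against 7.54, 26.4 and 20.9 in WT. Its groups did not overlap either, and its log2 fold change was -0.68 (SE 0.24, adjusted p = 0.545), a size set by the pseudocount since all cKO values lay below 16. Trp63, the relative that acts in epithelia, read 10.1 to 35.8 in cKO and 12.97 to 44.6 in WT, at 0.02 (SE 0.37) on the log2 scale.

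Lhx1 and Lhx5 encode closely related LIM homeodomain proteins. In the mouse telencephalon Lhx5 is expressed in the hem and in Cajal-Retzius cells and is required for hem and hippocampal development, and Lhx1 marks Cajal-Retzius cells as they leave their sources. Lhx5 (1420348_at) read 37.5, 37.8 and 17.3 in cKO, against 75.4, 86.4 and 75.1 in WT. The WT arrays were close to each other and above all cKO arrays, of which cKO 3 was lowest. On the log2 scale the difference was -1.05 (SE 0.22, adjusted p = 0.223 over all probe sets and 0.134 in the gene table). It was -0.85 (SE 0.17) without both arrays numbered 3 and -0.60 with a pseudocount of 64.

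Lhx1 had the largest log2 fold change of the 10 genes in the gene table and the widest spread. Its brighter probe set (1450428_at) read 2.27, 15.9 and 58.5 in cKO, against 63.3, 86.6 and 159 in WT. In both groups the array numbered 3 was highest, and cKO 3 lay just below WT 1. The log2 fold change was -1.68 (SE 0.55, 95% interval -2.99 to -0.37, adjusted p = 0.486 over all probe sets). With the arrays numbered 3 as a block the SE was 0.28 (adjusted p = 0.151). The size turned on the pseudocount, at -2.70 with 1 and -0.91 with 64, since 2 of the 3 cKO values lay below 16. The second Lhx1 probe set (1421951_at) overlapped, with 30.7, 7.80 and 9.72 in cKO and 20.1, 36.4 and 70.9 in WT, and had a log2 fold change of -0.84 (SE 0.40), or -0.38 (SE 0.41) without both arrays numbered 3.

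Among other LIM genes and cofactors, Lhx9 read 569 to 601 in cKO and 259 to 348 in WT. Its log2 fold change was 0.96 (SE 0.15, adjusted p = 0.0620), and all cKO arrays lay above all WT arrays. Lhx2, the selector gene that keeps cortex from becoming hem in the mouse, was at 0.07 (SE 0.17). Of the LIM cofactors, Ldb1 was at -0.07 (SE 0.13) and Ldb2 at -0.81 (SE 0.31, adjusted p = 0.464), with 488 to 1022 in cKO and 916 to 1483 in WT.

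Ebf2 and Ebf3 belong to the early B-cell factors, helix-loop-helix proteins that act in the migration and maturation of early neurons, and both are expressed in mouse Cajal-Retzius cells. The brightest Ebf2 probe set (1418494_at) read 95.7, 85.5 and 139 in cKO, against 126, 95.1 and 183 in WT, with a log2 fold change of -0.28 (95% interval -0.93 to 0.37). The 2 dimmer Ebf2 probe sets pointed the other way, at 0.62 (95% interval -0.32 to 1.56) and 0.34 (95% interval -0.58 to 1.26), so the direction of Ebf2 is not settled. All 3 probe sets had overlapping groups.

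Ebf3 was slightly above WT on all 3 of its probe sets, also with overlap. The brightest (1452751_at) read 283, 233 and 383 in cKO, against 231, 230 and 336 in WT, with a log2 fold change of 0.16 (95% interval -0.42 to 0.74). The others were at 0.48 (95% interval -0.30 to 1.26) and 0.31 (95% interval -0.47 to 1.09). A lower level in cKO as large as that of Trp73 or Ndnf lies outside all 3 intervals. Of their relatives, Ebf1 read 77.7 to 113 in cKO and 21.0 to 152 in WT, with overlap, and Ebf4 was at -0.13 (SE 0.16).

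All 6 Ebf2 and Ebf3 probe sets were higher on the array numbered 3 than on the other arrays of the group, by 0.52 to 0.79 on the log2 scale in cKO and by 0.52 to 1.26 in WT. The erythroid list moved with them, with a median of 1.73 higher on cKO 3 and 1.85 higher on WT 3. Cortical hem genes were 0.81 higher on cKO 3 and 0.43 on WT 3, and other Cajal-Retzius genes 0.35 and 0.33. Pan-neuronal genes went the other way, at -0.09 and -0.18. The log2 medians over all probe sets were 7.08 on cKO 3 and 7.01 on WT 3, against 6.74 to 6.89 on the other arrays. The meninges and mesenchyme list was 1.48 higher on cKO 3 and 0.27 on WT 3. All 10 of its genes were measured, and Aldh1a2 was at the bottom of the range, at 1.34 to 41.7 in cKO and 3.12 to 24.5 in WT. Its summed intensity ran from 711 to 2810 in cKO and from 807 to 1247 in WT. The part of the cells marked by these lists, or of the higher array medians, in the Ebf values was not tested. Without both arrays numbered 3 the 3 Ebf3 probe sets were at 0.15 to 0.53, and those of Ebf2 at -0.24, 0.86 and 0.43. With these arrays as a block, Ebf3 1460666_a_at was at 0.31 (SE 0.12, adjusted p = 0.456).

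**Figure D2:**
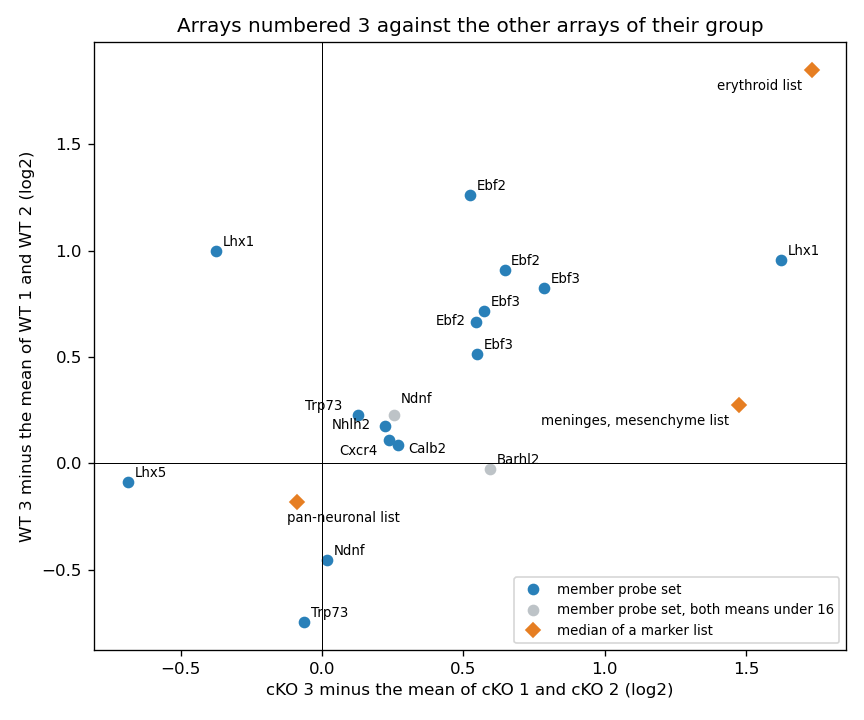
Deviation of the arrays numbered 3 from the mean of the other 2 arrays of the group, on log2(intensity + 16), for cKO on the x axis and WT on the y axis. Circles are the 17 member probe sets (grey where both group means are under 16) and diamonds are medians of marker lists. All 6 Ebf probe sets lie above 0 on both axes, as does the erythroid list, while the brighter Trp73 and Ndnf probe sets lie below 0 on the WT axis.

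Nhlh2, a basic helix-loop-helix factor of young neurons that is retained in Cajal-Retzius cells, did not separate the groups. It read 988, 1280 and 1316 in cKO, against 920, 1163 and 1171 in WT, and the arrays of both groups interleaved. The difference on the log2 scale was 0.14 (SE 0.18, 95% interval -0.31 to 0.58). Its close relative Nhlh1, expressed in neurons that have just left the cell cycle, read 600 to 770 in cKO and 329 to 436 in WT. All cKO arrays lay above all WT arrays, at 0.77 (SE 0.16, adjusted p = 0.153).

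Barhl2, a homeodomain factor of the diencephalon and spinal cord that also labels Cajal-Retzius cells, was at the bottom of the measured range. It read 15.0, 3.65 and 21.3 in cKO, against 6.66, 17.3 and 10.9 in WT, so most values lay below the pseudocount of 16. The log2 fold change of 0.05 (95% interval -0.62 to 0.72) has no settled sign, and a difference in Barhl2 was not detectable at these intensities. Barhl1 was also dim, at 22.3 to 49.0 in cKO and 6.58 to 32.7 in WT.

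Ndnf encodes a secreted protein that supports the survival and migration of neurons, and it marks Cajal-Retzius cells before birth and interneurons of the outermost cortical layer later. Of the 10 genes it came closest to the threshold. Its brighter probe set (1460465_at) read 72.5, 57.1 and 65.4 in cKO, against 244, 183 and 150 in WT. The lowest WT array, WT 3, lay well above the highest cKO array, and the cKO arrays were close to each other. The log2 fold change was -1.34 (SE 0.20, 95% interval -1.83 to -0.85, adjusted p = 0.0917 over all probe sets and 0.0504 in the gene table). Without both arrays numbered 3 it was -1.50 (SE 0.23, adjusted p = 0.289), with fewer arrays in the fit.

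Ndnf passed under 4 of the alternative settings of the gene table, with adjusted p between 0.0088 when dim probe sets were left out and 0.0314 with array weights, and with the replicate block adjusted p was 0.137. The other Ndnf probe set (1453225_at) read 7.36, 10.78 and 13.8 in cKO and 10.6, 8.79 and 14.1 in WT. All 6 values lay below 16, and its log2 fold change was -0.03 (SE 0.16). With the mean of both probe sets in place of the brighter, Ndnf was at -0.69.

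Cxcr4, the receptor for Cxcl12 that keeps Cajal-Retzius cells beneath the meninges, read 244, 413 and 378 in cKO, against 420, 493 and 492 in WT. All cKO arrays lay below all WT arrays, but cKO 2 only just below WT 1, and cKO 1 was lowest. The log2 fold change was -0.45 (SE 0.22, 95% interval -0.99 to 0.08, adjusted p = 0.727), and -0.23 without cKO 1. Its ligand Cxcl12 read 1036 to 1137 in cKO and 1033 to 1296 in WT, at -0.07 (SE 0.13). Ackr3, the second receptor of Cxcl12, which removes the ligand, had 2821 to 3208 in cKO and 1593 to 1858 in WT. All cKO arrays were above all WT arrays, at 0.79 (SE 0.13, adjusted p = 0.0671) on the log2 scale.

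Cxcr4 is also expressed by endothelial cells, microglia and migrating interneurons. Of 10 endothelial genes 9 were lower in cKO, as were 8880 of all 18193 genes, and 0 passed the threshold. At unadjusted p < 0.05, 4 of the 10 were lower and 0 higher (background 4.39% lower and 5.17% higher). Their summed intensity was 3502 to 3655 in cKO and 3902 to 4072 in WT, with a median log2 fold change of -0.25. Tie1 was at -0.85 (SE 0.20), Emcn at -0.46, Esam at -0.44 and Cldn5 at -0.38. Of 6 microglial genes 5 were lower and 0 passed (0 at an unadjusted p under 0.05), with sums of 730 to 1103 in cKO and 929 to 1297 in WT and a median of -0.28. P2ry12 was at -0.44, Cx3cr1 at -0.47, C1qa at -0.36 and Aif1 at -0.20. The part of either cell type in the Cxcr4 values was not tested.

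Calb2 encodes calretinin, a calcium-binding protein of Cajal-Retzius cells and of some interneurons. It read 172, 145 and 194 in cKO, against 166, 244 and 215 in WT, where cKO 1 and cKO 3 lay within the WT range. On the log2 scale Calb2 was at -0.26 (SE 0.19, 95% interval -0.72 to 0.20). Calb1, which encodes calbindin, was at 0.26 (SE 0.23).

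**Figure D3:**
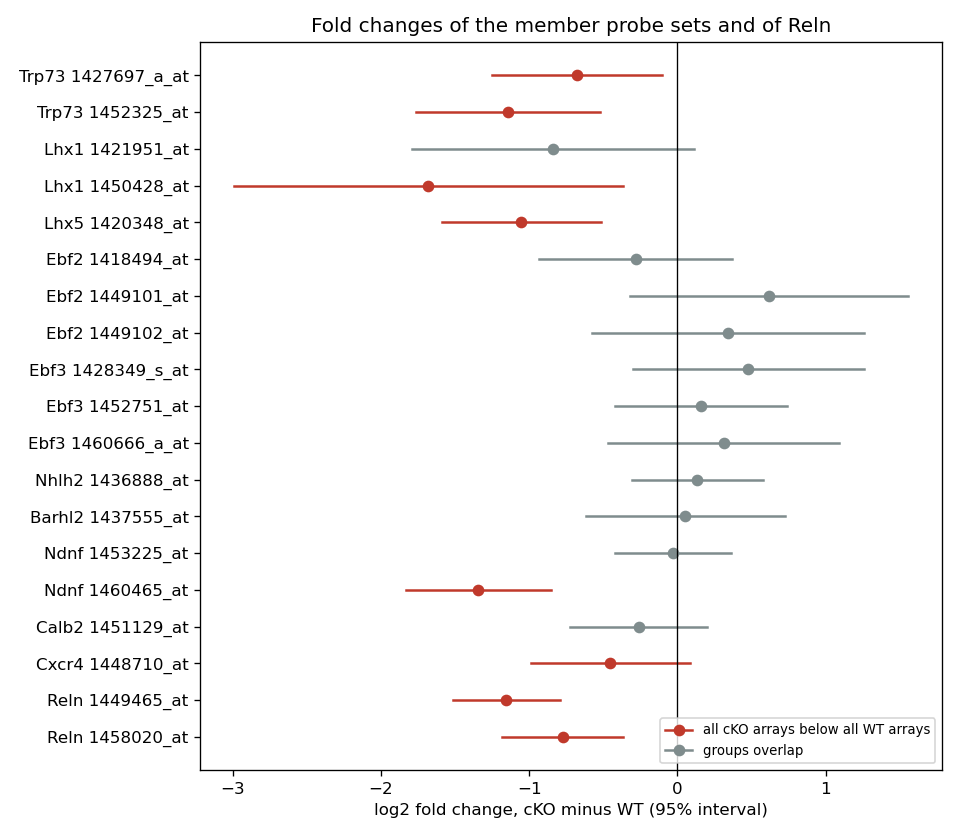
Log2 fold changes, cKO minus WT, of the 17 probe sets and of both Reln probe sets, with 95% intervals from limma. Red marks probe sets on which all cKO arrays lie below all WT arrays. Intervals of Trp73, Lhx5, Ndnf 1460465_at, Lhx1 1450428_at and Reln lie below 0. Those of Ebf2, Ebf3, Nhlh2, Barhl2, Calb2, Lhx1 1421951_at and Ndnf 1453225_at cross it, as does that of Cxcr4, which is red.

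Other genes of Cajal-Retzius cells were taken from a list of 13, of which 12 were measured. Of these 1 fell and 0 rose, and 9 were lower and 3 higher in cKO, with a median of -0.24. Over all genes 8880 of 18193 were lower. At unadjusted p < 0.05, 3 of the 12 were lower and 0 higher (background 4.39% lower and 5.17% higher). Reln fell by 1.15 on the log2 scale in the gene table (SE 0.14, adjusted p = 0.0266), at 2864, 2507 and 3197 in cKO against 6286, 6198 and 6552 in WT, or 45.0% of the WT mean. With the replicate number as a block, without both arrays numbered 3 (adjusted p = 0.164) and with any 1 array left out Reln did not pass. Over all probe sets its adjusted p was 0.0561, and its dim second probe set was at -0.77. Spock1, a proteoglycan of neurons, was at -1.30 (SE 0.24, adjusted p = 0.0935), with 238 to 304 in cKO and 473 to 833 in WT. Mab21l1 was at -0.97 (SE 0.28), or -0.66 without both arrays numbered 3. Zic1, a zinc finger gene of the hem and septum, was at -0.84 (SE 0.42). In Reln, Spock1 and Mab21l1 the groups did not overlap (background 7.64% lower and 7.9% higher). The 3 higher genes were Nr2f2 at 0.23, Ebf1 at 0.22 and Zic2 at 0.03, all with overlap.

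Cortical hem genes mark one source of these cells. Of 13 measured cortical hem genes 5 were lower, 8 were higher and 0 passed (1 lower and 0 higher at unadjusted p < 0.05). Their median was 0.11 and their sums 1106 to 1594 in cKO and 1578 to 1586 in WT. Rspo3, an enhancer of Wnt signalling, was the lower one, at -0.47 (SE 0.18, adjusted p = 0.464), with 608 to 889 in cKO and 917 to 1149 in WT. Msx2, Wnt2b and Rspo2 were at 0.53, 0.42 and -0.46, with cKO and WT means of at most 39.6. Wnt3a (6.93 to 55.1 in cKO, 28.1 to 65.9 in WT) and Lmx1a (3.64 to 20.8 in cKO, 4.18 to 55.0 in WT) were also dim, which limits what this list can show.

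Of 14 regulators of dorsal patterning and neurogenesis 0 passed (3 lower and 0 higher at unadjusted p < 0.05), with a median of -0.01. Neurog1, a proneural factor, was at -1.32 (SE 0.19, adjusted p = 0.0543), with 183 to 233 in cKO and 472 to 711 in WT. Emx2, a homeobox gene that shares its name with the Cre driver, stood at -0.83 (SE 0.14, adjusted p = 0.0714), and Dbx1, a homeobox gene of the septal and ventral sources of Cajal-Retzius cells, at -0.49 (SE 0.20). In these 3 genes all cKO arrays lay below all WT arrays (background 7.64%). In Neurog2, at 0.13 (SE 0.11), all cKO arrays lay above all WT arrays (background 7.9%). Of the 14 genes 8 were lower and 6 higher in cKO. Since the labels do not say whether WT embryos carried Cre, an effect of the Emx2Cre allele on Emx2 and one of the deletion cannot be told apart. Fgf8, a signal of the rostral midline, was near the bottom of the range, at 3.68 to 20.8 in cKO and 3.49 to 5.66 in WT.

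Of the 12 measured relatives and partners of the members 0 passed (3 higher and 1 lower at unadjusted p < 0.05), with a median of 0.14. The 3 higher ones were Lhx9, Ackr3 and Nhlh1, described above, and the lower one was Ldb2.

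Subplate neurons, another early-born population, had 1 gene that fell and 0 that rose among 6 measured, with a median of -0.34. At unadjusted p < 0.05, 3 of the 6 were lower and 1 higher. Nr4a2, an orphan nuclear receptor, fell by 1.18 on the log2 scale (SE 0.17, adjusted p = 0.0492), at 428 to 601 in cKO and 1166 to 1307 in WT. Tmem163 was at -0.68, Lpar1 at -0.62 and Nxph4 at 0.92. Reln and Nr4a2 were the only genes of the lists besides the members that passed, and 0 of them did with the replicate number as a block, without both arrays numbered 3 or with any 1 array left out.

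Pan-neuronal genes stayed close to the WT level. Of 9 pan-neuronal genes 7 were lower and 2 higher in cKO, and 0 passed (0 at an unadjusted p under 0.05). The median was -0.09, with values between -0.25 for Syt1 and 0.10 for Rbfox3. In Syt1 all cKO arrays lay below all WT arrays. Dcx was at -0.16, Snap25 at -0.14 and Elavl4 at -0.12, and the sums were 62139 to 66908 in cKO and 62971 to 72896 in WT. Of 7 dorsal telencephalon genes 0 passed (1 lower and 0 higher at unadjusted p < 0.05), with a median of -0.19. Eomes, the factor of intermediate progenitors, was at -0.63 (SE 0.13), Bcl11b at -0.33, Tbr1 at -0.21 and Neurod2 at -0.19. Of this list 2 genes were higher, Neurod6 at 0.20 and Pax6 at 0.09, and 5 lower, with Emx1 at -0.01.

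Markers of other cells that express the same genes were examined beside them. Of 17 interneuron and ventral genes 0 passed (2 higher and 0 lower at unadjusted p < 0.05), with a median of 0.07 and sums of 6837 to 7709 in cKO and 5739 to 8620 in WT. In this list 12 genes were higher in cKO and 5 lower. Gad1 was at 0.48, Lhx6 at 0.19, Maf at 0.27, Dlx1 at -0.26, Dlx6 at -0.48 and Isl1 at -0.50. Without both arrays numbered 3, Dlx1 was at -0.00084, Dlx6 at -0.07 and Isl1 at -0.08. Gad1, Lhx6 and Maf were then at 0.58, 0.11 and 0.26, and the list median was 0.26. Nkx2-1 was at 1.01, with a WT mean of 10.9, below the pseudocount. All 8 measured diencephalon genes were higher in cKO, as were 9313 of all 18193 genes, and 0 passed (1 higher and 0 lower at unadjusted p < 0.05), with a median of 0.33 and sums of 1077 to 1324 in cKO and 670 to 1010 in WT. The 1 higher at unadjusted p was Lhx9, which was also counted among the relatives of the members. Beside Lhx9, Sim1 was at 0.32, Otp at 0.43 (0.16 without both arrays numbered 3) and Olig3 at 0.46, with both Olig3 means below the pseudocount. Their part in the values of Lhx1, Lhx5 and Barhl2, which diencephalic neurons also express, was not tested.

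Of the remaining lists 0 genes passed. Choroid plexus genes had a median of -0.32 over 6 genes (0.05 without both arrays numbered 3), with Ttr at -0.64, Kcnj13 at -0.71, Folr1 at 0.35 and Clic6 at -0.18 (1 lower and 0 higher at unadjusted p < 0.05). Meninges and mesenchyme genes had a median of 0.21 over 10 genes, or -0.22 without both arrays numbered 3, with Ptgds at 0.55, Col1a2 at 0.48, Foxd1 at 0.19 and Bgn at -0.17 (0 at an unadjusted p under 0.05). Erythroid genes had a median of 0.21 over 9 genes, of which 6 were higher and 3 lower. Klf1 was at 0.27, Epb42 at 0.39, Alas2 at 0.23, Hbb-bh1 at -0.20 and the dim Hba-a1 at 0.99, with means of 34.7 in cKO and 9.71 in WT (1 higher and 0 lower at unadjusted p < 0.05). Sums of the erythroid list were 11274 to 74085 in cKO and 12549 to 69441 in WT.

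**Figure D4:**
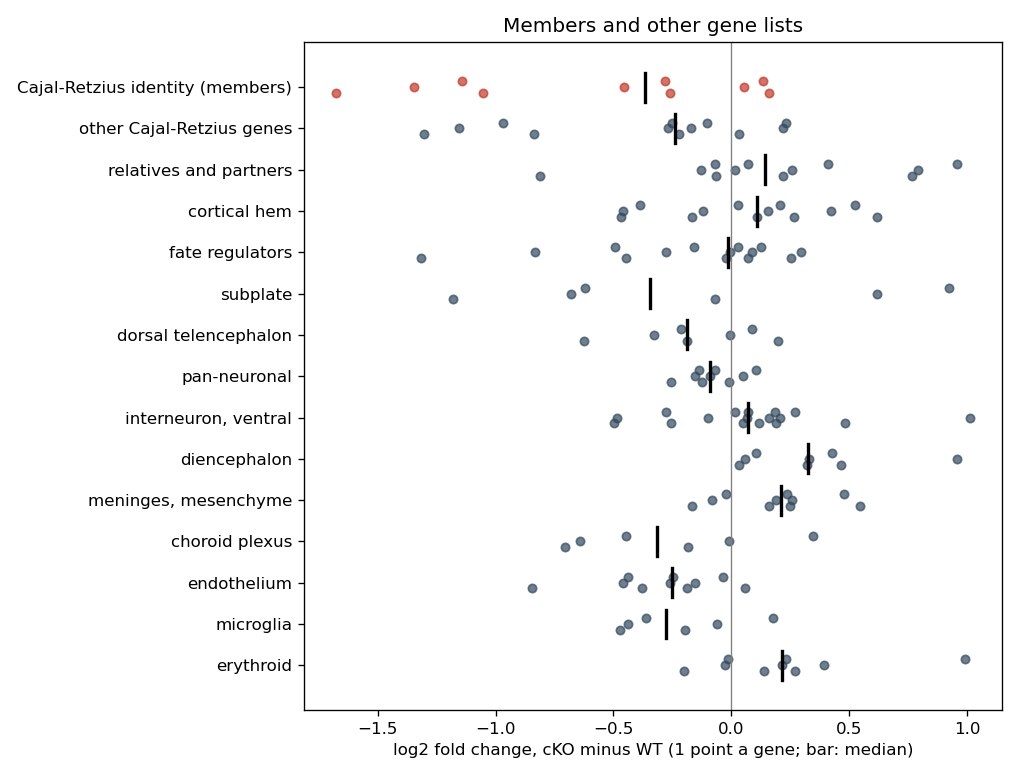
Log2 fold changes, cKO minus WT, of the 10 members and of the genes of 14 other lists from the gene table, 1 point a gene, with the median as a bar. The members spread from -1.68 to 0.16, and the pan-neuronal genes from -0.25 to 0.10.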

How the data were processed

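The authors deposited linear array intensities, 1 value per probe set and array, made with the Affymetrix Expression Console, per the submitters' processing notes. Which version and which summary algorithm they ran is not given in the sources used here. Biotinylated cRNA came from 250 ng of total RNA per array, per the labels' protocols. Trimmed means (2% at each end) of 497.2 to 497.7 show a common scaling. No detection calls were used here. Intensities were taken to log2(intensity + 16) with no further normalization, and the 3 arrays per group limit the precision.

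All 45037 probe sets, and separately 18193 genes by their brightest probe set, were fitted with limma 3.58.1 in R 4.3.3 (lmFit, eBayes, genotype only, Benjamini-Hochberg over all features, threshold 0.05). Errors are moderated SEs, and ± is the SD. The fit was tested on simulated data. Probe sets were named from the platform annotation: 34945 have 1 gene, 932 several and 9160 none. Levels are not compared between probe sets.

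The members and lists were chosen with earlier results of these data known. Named were all members, Reln, Setdb1, up to 4 genes a list with the smallest p, and markers needed as checks; Trp63, the Ebf, LIM, Barhl1, Calb1, Cxcl12, Wnt3a and Lmx1a values were added as relatives or defining markers. Nr2f2, Zic2, Neurog2, Dlx1, Dlx6, Isl1, Hbb-bh1, Aldh1a2, Neurod6, Pax6 and Emx1 were named after their values were seen. They show list genes that went the other way or were dim. Titles share the numbers 1 to 3. Deviations of same-numbered arrays from their group means, over the brighter probe sets, correlated at 0.21, 0.43 and 0.75, above the 0.1 set for pairing. cKO 1 correlated better with WT 2 (0.42) and cKO 2 with WT 1 at 0.34, so the pairing rests mainly on the arrays numbered 3. Values in the text come from the fit without the block, and the blocked fit is given where it changed a call.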

Additional observations from a re-analysis of the deposited data

How the results depend on the processing

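Over all alternatives, 0 member probe sets or genes were past the threshold upward. Downward, 1 member probe set passed when dim probe sets were left out and 1 with the trend and robust settings, Ndnf each time. Of the genes, 2 passed when dim probe sets were left out (Ndnf, and Trp73 at adjusted p = 0.0494), and 1 (Ndnf) each with a pseudocount of 64, the trend and robust settings and array weights. Leaving out dim probe sets kept 7 of the 10 genes and lowers the number of features tested. With any 1 array left out, with the replicate block, without both arrays numbered 3 and under the other settings 0 passed. Ndnf then ran from -1.50 to -1.17, Trp73 from -1.39 to -0.94, Lhx5 from -1.17 to -0.82, Lhx1 from -2.22 to -1.21, Cxcr4 from -0.59 to -0.23, Calb2 from -0.40 to -0.15 and Ebf2 1418494_at from -0.48 to -0.06 in the fits that left out 1 array. Barhl2 turned to -0.022 with quantile normalization, -0.0017 with a pseudocount of 1 and -0.15 without both arrays numbered 3, and ran from -0.14 to 0.32 with 1 array left out. Ebf3 1452751_at ran from -0.023 to 0.33 and Ndnf 1453225_at from -0.11 to 0.062 there, and Ebf2 was at 0.23 with the mean of its probe sets. Setdb1, at -0.83, passed when dim probe sets were left out (adjusted p = 0.0377) and with the trend and robust settings (adjusted p = 0.0308). Among the other lists, 2 genes were past the threshold lower and 0 higher. These counts were 7 and 3 when dim probe sets were left out, 6 and 2 with a pseudocount of 64, 6 and 3 with the trend and robust settings, 5 and 2 with array weights, and 0 and 0 with a pseudocount of 1, the replicate block, without both arrays numbered 3, or without any 1 array. Over all genes, 44 were past the threshold lower and 70 higher, against 123 and 129 when dim probe sets were left out, 13 and 45 with a pseudocount of 1, 90 and 125 with 64, 109 and 135 with the trend and robust settings, 81 and 108 with array weights, 1 and 16 with the replicate block, 0 and 8 without both arrays numbered 3, and 1 to 9 and 25 to 44 with 1 array left out. Beyond the construction of fewer features or arrays, the cause was not tested. Signals near the pseudocount limit what Barhl2 and the dimmer Trp73, Lhx1 and Ndnf probe sets can show. The replicate block changed no call of a member.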
